A study of Bos taurus with 12 samples.

Results

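EPHX2, DDO, PYROXD2, DHRS12 and SULT1E1 encode enzymes that oxidise, hydrolyse or conjugate small molecules. They are 5 of the 9155 genes named on the array, and were measured by 7 of the 24016 probe sets tested: 2 for EPHX2, 2 for PYROXD2 and 1 for each of the others. Their NCBI gene identifiers are 511716 (EPHX2), 280763 (DDO), 519120 (PYROXD2), 507276 (DHRS12) and 280934 (SULT1E1). The probe sets were taken by gene symbol from the platform's probe table, and each was kept separate. The 5 genes were picked because earlier results of these same arrays had shown large changes among them. Their levels and differences are therefore given as descriptions without p-values, and support no test.

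The cells were cultured bovine chromaffin cells, which make and secrete catecholamines in the adrenal medulla. They came from adrenal glands and were profiled on 12 Affymetrix arrays of a single colour. One group was left untreated. The others received interleukin-6 (IL6) at 10 nM for 24 h, interferon alpha (IFNα; human, per the design text) at 1 nM for 24 h, or histamine (10 µM, 6 h). There were 4 groups of 3 arrays, described by the submitters as technical repeats, so SDs, standard errors and p-values measure only the spread between these arrays. Histamine differs from the cytokines in dose and time, and all 3 treatments share the same untreated arrays.

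EPHX2 is soluble epoxide hydrolase, which opens fatty acid epoxides made by cytochrome P450 enzymes into diols and so ends their signalling. DDO, D-aspartate oxidase, is a flavoenzyme of peroxisomes that breaks down D-aspartate and releases hydrogen peroxide. D-aspartate is a D-amino acid found in neuroendocrine tissue. PYROXD2 carries a pyridine nucleotide-disulphide oxidoreductase domain, DHRS12 belongs to the short-chain dehydrogenases and reductases, and SULT1E1 is the sulfotransferase that inactivates oestrogens by transferring sulfate from the donor PAPS.

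All values are log2 expression values after robust multi-array averaging (RMA), which sets no detection limit. The lower quartile of each array, 5.02 to 5.11, was used as a guide to dimness. The 10 measured chromaffin markers of 15 listed, among them TH, DBH and CHGA, averaged 12.08 to 12.72 over the arrays. Of markers of other cells, 14 of 17 adrenal cortex, 12 of 13 leukocyte, 12 of 12 fibroblast and mural, 9 of 10 endothelial and 4 of 8 Schwann cell genes were measured. In these lists SULT2A1, PTPRC, FCER1G, VWF and KDR lay below the highest of those lower quartiles on every array. IL6 repeats 2 and 3 and IFNα repeat 3, the hypoxia-high arrays, stood apart. The mean of 24 glycolysis and hypoxia genes relative to untreated was 0.63, 0.98 and 0.71 there, against -0.04 to 0.22 on the other 9 arrays.

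A probe set was called when limma gave an adjusted p under 0.05 and the fold was at least 1.5. After IL6, 2 of the 7 probe sets were past this rule, both lower. Of all probe sets 2.39% were, and 0.949% were lower. After IFNα, 1 was past it upward and 1 downward, against 3.36% of all probe sets (2.18% higher, 1.18% lower). After histamine, 5 were past it, all lower, against 5.7% (2.71% lower). Between IL6 and IFNα, 2 were past it upward and 1 downward, against 6.11% (2.82% higher, 3.29% lower). The treated and untreated arrays did not overlap for 5 of 7 probe sets after IL6, against 33.9% of all probe sets. The same held for 6 of 7 after IFNα (32.9%) and for 6 of 7 after histamine (43.7%). Because the genes were chosen from these comparisons, nothing is read from these shares.

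**Figure D1:**
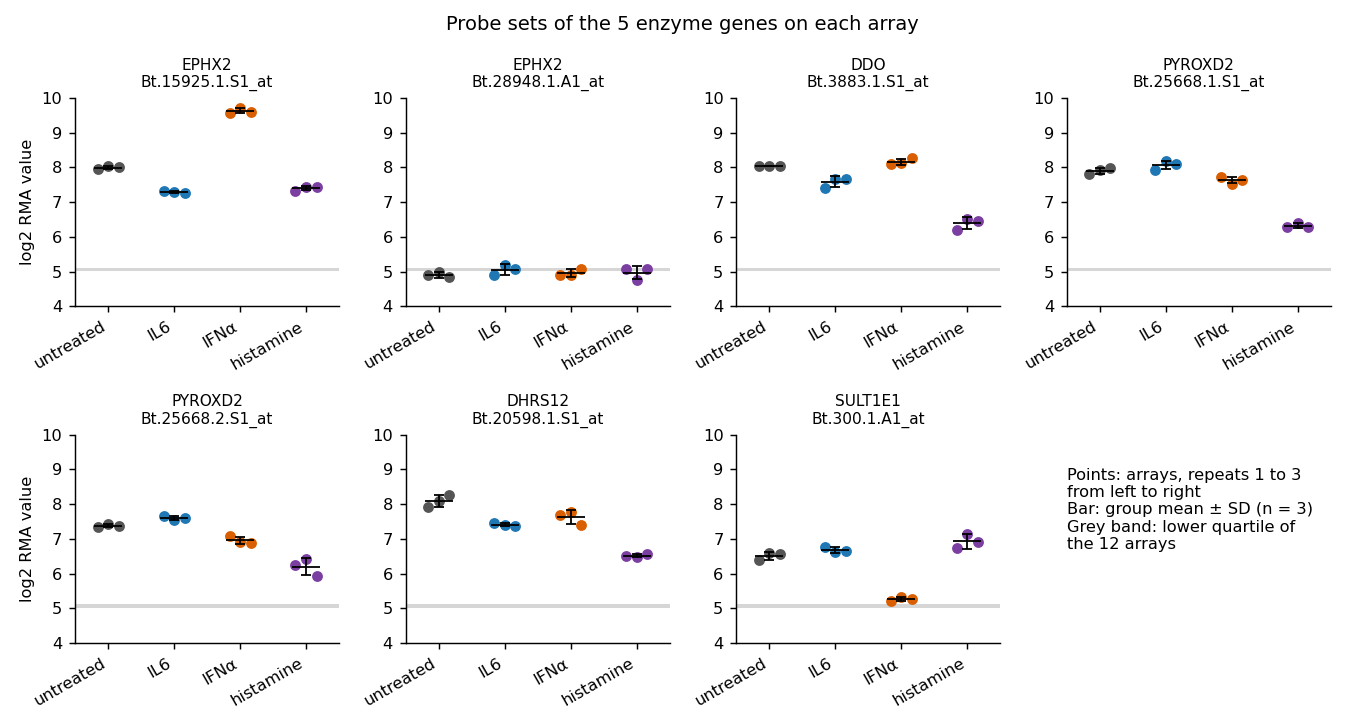
Log2 RMA value (vertical axis) of each of the 7 probe sets on the 12 arrays, by group. Points are arrays, bars are the group mean ± SD (n = 3), and the grey band is the range of the arrays' lower quartiles (5.02 to 5.11). The brighter EPHX2 set is highest after IFNα, and the dimmer EPHX2 set is not. DDO, PYROXD2 and DHRS12 are lowest after histamine, and SULT1E1 is lowest after IFNα.

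EPHX2 rose after IFNα and fell after IL6 and histamine on its brighter probe set. Its 3 untreated arrays read 7.94, 8.04 and 8.01, its IL6 arrays 7.31, 7.30 and 7.26, its IFNα arrays 9.58, 9.72 and 9.60, and its histamine arrays 7.33, 7.45 and 7.44. No group overlapped another, although the IL6 and histamine arrays were separated by only a small gap, with means 0.12 apart. The IFNα mean was 3.11-fold the untreated mean (log2 difference 1.64, SE 0.06), which ranked 155 from the top of all 24016 probe sets. The IL6 mean was 61.3% of untreated (log2 difference -0.71, SE 0.06), and the histamine mean was 66.4% (log2 difference -0.59, SE 0.06). IL6 and IFNα therefore lay on opposite sides of untreated, 5.07-fold apart (log2 difference IL6 minus IFNα -2.34). IL6 repeat 1, whose hypoxia genes were close to untreated, read 7.31, against 7.30 and 7.26 on the other 2 IL6 arrays.

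The histamine fall of EPHX2 sat at the fold minimum itself, at 1.51-fold. It was under the minimum without untreated repeat 2, untreated repeat 3 or histamine repeat 1, with log2 differences of -0.57, -0.58 and -0.55.

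The other, dimmer EPHX2 probe set showed none of this. Its 12 values ran from 4.75 to 5.20, around the lower quartile of the arrays, and every pair of neighbouring groups in the order of its means overlapped. Its log2 differences were 0.15 after IL6, 0.05 after IFNα and 0.06 after histamine. The EPHX2 pattern thus rests on a single probe set, and which part of the transcript each set reads was not analysed here.

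DDO fell after histamine by 1.65 on the log2 scale, to 31.9% of the untreated mean (SE 0.09). The untreated arrays read 8.05, 8.04 and 8.05 and the histamine arrays 6.20, 6.52 and 6.47, so the groups stood 1.52 apart at their closest. Of all probe sets, only 2 had a lower difference after histamine. The IFNα arrays read 8.09, 8.13 and 8.26, just above the untreated arrays (log2 difference 0.11). The IL6 arrays read 7.41, 7.68 and 7.68, all below untreated, with a log2 difference of -0.46 (SE 0.09) that missed the fold minimum. IL6 repeat 1 was the lowest of the 3. With IL6 repeats 2 and 3 and IFNα repeat 3 left out this array stands alone, assumed to vary like the other groups, and the IL6 difference was -0.64. The difference of IL6 from IFNα was -0.57 with all arrays, short of the fold minimum. It passed the rule when IL6 repeat 2 or 3 or IFNα repeat 1 or 2 was left out (-0.62 to -0.59), and was -0.70 with those 3 arrays left out.

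PYROXD2 fell after histamine on both of its probe sets. On the brighter the untreated arrays read 7.81, 7.93 and 7.98 and the histamine arrays 6.28, 6.40 and 6.29. The histamine mean was 33.4% of untreated (log2 difference -1.58, SE 0.08). On the other the untreated arrays read 7.33, 7.44 and 7.38 and the histamine arrays 6.25, 6.41 and 5.94, with a log2 difference of -1.18 (SE 0.10). The histamine arrays were the lowest of all 12 on both sets.

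The cytokine arrays of PYROXD2 lay closer to untreated. After IL6 the brighter set read 7.93, 8.17 and 8.11, overlapping untreated, and the other read 7.65, 7.54 and 7.61, just above it, with log2 differences of 0.16 and 0.22. With the 3 hypoxia-high arrays left out the brighter set had 0.02 and the other 0.27. After IFNα the brighter set read 7.72, 7.53 and 7.65 and the other 7.07, 6.90 and 6.89. All lay below untreated, with log2 differences of -0.27 and -0.43 that missed the fold minimum. The 2 sets therefore had the same sign in each comparison. Between IL6 and IFNα the second set was past the call rule (log2 difference 0.65, SE 0.10) and the brighter was not (0.44, SE 0.08).

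DHRS12 was lower after all 3 treatments. Its untreated arrays read 7.91, 8.09 and 8.25, above every treated array. The histamine arrays were lowest, at 6.51, 6.47 and 6.56, or 33.7% of untreated (log2 difference -1.57, SE 0.10). The IL6 arrays read 7.45, 7.39 and 7.37 (log2 difference -0.68, SE 0.10; -0.63 for IL6 repeat 1 alone). The IFNα arrays read 7.70, 7.77 and 7.41 (log2 difference -0.46, SE 0.10), short of the fold minimum. IFNα repeat 3, one of the hypoxia-high arrays, was the lowest of its group and reached into the IL6 range, and without the 3 arrays the IFNα difference was -0.35. The order of the 2 cytokine groups was not separated by their arrays.

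SULT1E1 fell after IFNα and lay slightly above untreated after the other treatments. The IFNα arrays read 5.21, 5.33 and 5.26 against 6.39, 6.60 and 6.55 in untreated cells, a fall to 42.1% (log2 difference -1.25, SE 0.10). This is rank 19 from the bottom of all probe sets. The IFNα values lie just above the lower quartile of the arrays, where RMA compresses differences. The IL6 arrays read 6.77, 6.62 and 6.65, just above untreated (log2 difference 0.17). The histamine arrays read 6.73, 7.14 and 6.91, also above untreated but short of the fold minimum (log2 difference 0.41, SE 0.10). The IL6 and histamine arrays overlapped. IL6 lay 2.66-fold above IFNα. The fall was -1.24 without IFNα repeat 3 and IL6 repeats 2 and 3.

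Markers of the adrenal cortex moved over these groups as well. The mean of 14 measured cortex markers relative to untreated was -0.45 to -0.44 on the IFNα arrays, -0.39 to -0.31 on the IL6 arrays and 0.31 to 0.36 on the histamine arrays. Of them 5 were called lower and none higher after IFNα, 3 lower and none higher after IL6, and 3 higher and none lower after histamine. Fibroblast and mural markers lay at -0.32 to -0.19 on the IFNα arrays, -0.14 to -0.08 on the IL6 arrays and 0.28 to 0.34 on the histamine arrays. Leukocyte markers lay at -0.19 to -0.18, 0.20 to 0.32 and 0.18 to 0.26, and endothelial markers at -0.30 to -0.27, -0.26 to -0.07 and -0.17 to -0.06. The members of these lists did not all move alike. Among leukocyte markers after IL6, CORO1A (1.70) and CD14 (1.03) were called higher, ITGB2 (-0.95) lower and the other 9 were not called. After IFNα only S100A12 (-1.45) was called in that list, and the list median was -0.00. After histamine S100A12 (1.16) and CORO1A (0.70) were called higher and the other 10 were not called, with a list median of 0.08. Among fibroblast and mural markers after IL6, POSTN (0.94) was called higher and ACTA2 (-0.67) lower. Among endothelial markers after histamine, CLDN5 (0.62) was called higher and TEK (-0.81) lower. The 10 chromaffin markers themselves lay at -0.06 to 0.28 on the IFNα arrays, -0.27 to 0.09 on the IL6 arrays and 0.24 to 0.37 on the histamine arrays. Of them PNMT (2.29), SLC18A2 (0.77) and SCG2 (0.73) were called higher after histamine, none was called lower and 7 were not called. DBH (-0.58) and CYB561 (-0.41) were among those 7, and the list median was 0.12. The 4 Schwann cell markers lay at -0.205 to -0.13 on the IFNα arrays, -0.035 to 0.08 on the IL6 arrays and -0.0025 to 0.01 on the histamine arrays. In a bulk culture, fewer cells of a type and less RNA per cell cannot be told apart, and the part of these markers in the results was not tested.

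**Figure D2:**
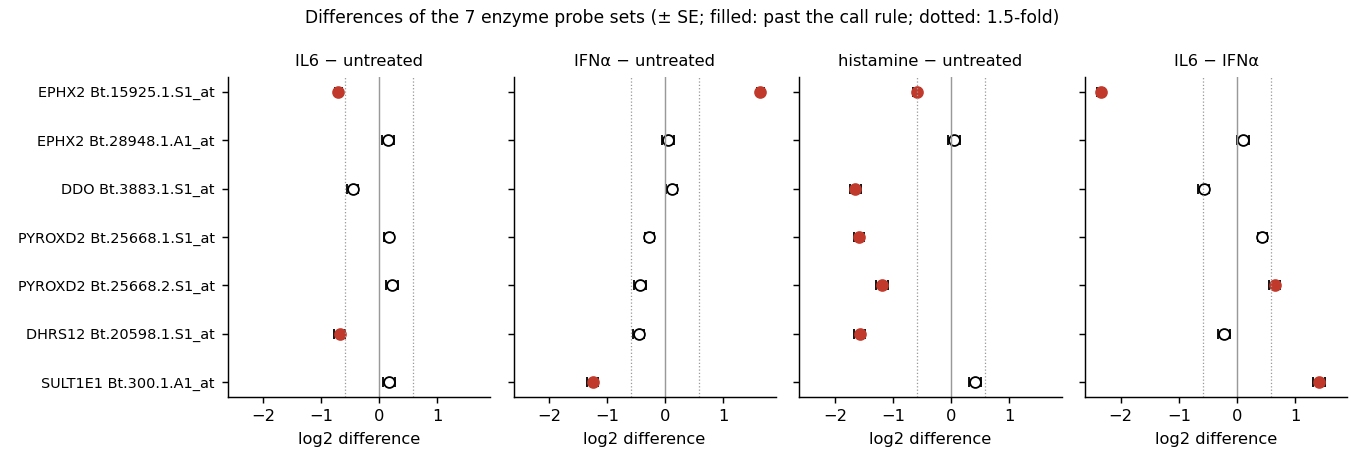
Fitted log2 difference (horizontal axis, ± SE) of the 7 probe sets after IL6, IFNα and histamine against untreated, and of IL6 against IFNα. Filled points are past the call rule and dotted lines mark a fold of 1.5; the histamine column holds 5 filled points, all to the left, and the brighter EPHX2 set lies to the right after IFNα (1.64) and to the left after IL6 (-0.71).

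Among themselves, the probe sets were compared by the root mean square difference over the 12 arrays, after each was set relative to its own untreated mean. The 2 PYROXD2 sets differed by 0.25. DDO differed from the brighter PYROXD2 set by 0.38 and from DHRS12 by 0.35, and DHRS12 differed from the brighter PYROXD2 set by 0.45. SULT1E1 and the brighter EPHX2 set were the pair farthest apart, at 1.59. DDO, PYROXD2 and DHRS12 shared their large histamine fall, whereas their cytokine values differed. The IL6 arrays lay below untreated for DDO and DHRS12. For PYROXD2 the IL6 means were slightly above untreated, and on the brighter set the arrays overlapped untreated.

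The same measure was used to find, for each gene, the 3 other named genes closest to it over the 12 arrays. For EPHX2 these were ECHDC2 (0.29), SSLP1 (0.30) and PLAC8B (0.32), all high after IFNα by 1.41 to 1.91, but with IL6 differences of only -0.22 to -0.17. For DDO they were SIRT3, a mitochondrial deacetylase (0.28), the kinase ZAP70 (0.29) and BRINP1 (0.30). For PYROXD2 they were the kinase RPS6KA5 (0.25), DZIP3 (0.31) and again BRINP1 (0.31). DHRS12 had the closest match of all, the centromere protein CENPT (0.15), followed by ZMYND12 (0.19) and MCF2L (0.24). CENPT had log2 differences of -0.54 after IL6, -0.45 after IFNα and -1.44 after histamine. For SULT1E1 they were the protease inhibitor A2M (0.20), the adenylate cyclase ADCY2 (0.23) and XDH, xanthine dehydrogenase (0.26). They had log2 differences of -1.12 to -0.92 after IFNα and 0.37 to 0.43 after histamine. After IL6 they were less alike, with 0.08 for A2M, 0.33 for ADCY2 and -0.19 for XDH, against 0.17 for SULT1E1.

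**Figure D3:**
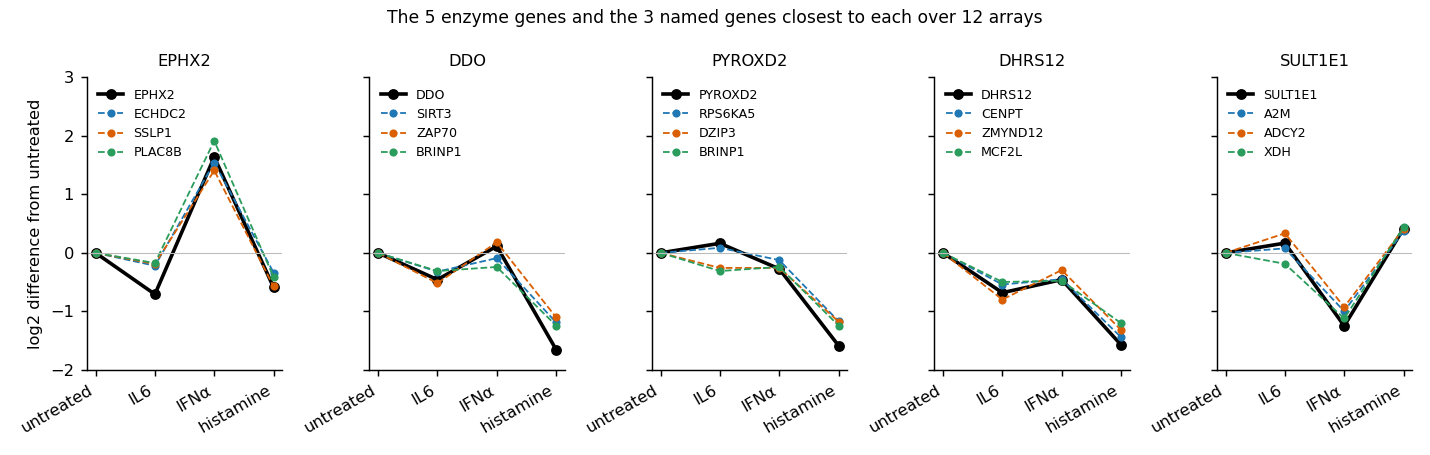
Mean log2 difference from untreated (vertical axis) in the 4 groups for each of the 5 enzyme genes (black, its probe set with the widest range) and the 3 named genes closest to it by root mean square difference over 12 arrays (dashed). Lines join groups only to help the eye; the closest match is CENPT to DHRS12 (0.15).

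Other enzymes of the same pathways were taken from 8 lists, in which 216 genes were measured, each by its brightest probe set. After IL6, 3 rose and 5 fell (3.7%), against 2.76% of all 9155 named genes. After IFNα 5 rose and 4 fell (4.17%, against 3.95%). After histamine 7 rose and 15 fell (10.2%, against 6.98%). Shares by direction are not given for the named genes. Over all probe sets after histamine, 5.7% were called and 2.71% were called lower. Between IL6 and IFNα 6 were higher and 6 lower after IL6 (5.56%, against 6.96%). The medians of the 216 genes were -0.00, -0.01, -0.04 and 0.01 in the same order, against 0.00, -0.02, -0.00 and 0.03 over all probe sets tested. The lists were not put to a set test.

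In the list of epoxide hydrolases and eicosanoid enzymes around EPHX2, 1 of 25 was called by limma after IL6, 0 after IFNα, where 8 had an unadjusted p under 0.05, and 1 after histamine. Both calls were falls of EPHX1, the microsomal epoxide hydrolase that detoxifies xenobiotic epoxides. Its log2 differences were -0.66 after IL6 (SE 0.10; limma, adjusted p = 0.000224) and -0.75 after histamine (limma, adjusted p = 2.63e-05). EPHX1 was not called after IFNα, where EPHX2 stood highest. CYP4V2, a fatty acid hydroxylase, was lower after IL6 than after IFNα (log2 difference -0.68; limma, adjusted p = 4.22e-07), and of its 2 other probe sets 1 was called (-0.70) and 1 was not (-0.20). The list medians were -0.03, 0.04 and -0.05 after IL6, IFNα and histamine.

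Of 24 measured peroxisomal genes around DDO, 3 fell and none rose after histamine, with a list median of -0.19 against -0.00 over all probe sets. ACOX2, a peroxisomal acyl-CoA oxidase, fell by 0.89 (limma, adjusted p = 2.31e-08), CROT, which moves medium-chain acyl groups out of peroxisomes as carnitine esters, by 0.81, and PHYH, which starts the breakdown of phytanic acid, by 0.61 on the log2 scale. PHYH was under the fold minimum without untreated repeat 2 or histamine repeat 1 (-0.56 and -0.55) and with arrays centred on their median (-0.58). After IFNα CROT rose 1.96-fold (limma, adjusted p = 9.92e-05) and was the single call. After IL6 limma called 0 of the 24 at that fold minimum, and before adjustment 7 had a p under 0.05.

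**Figure D4:**
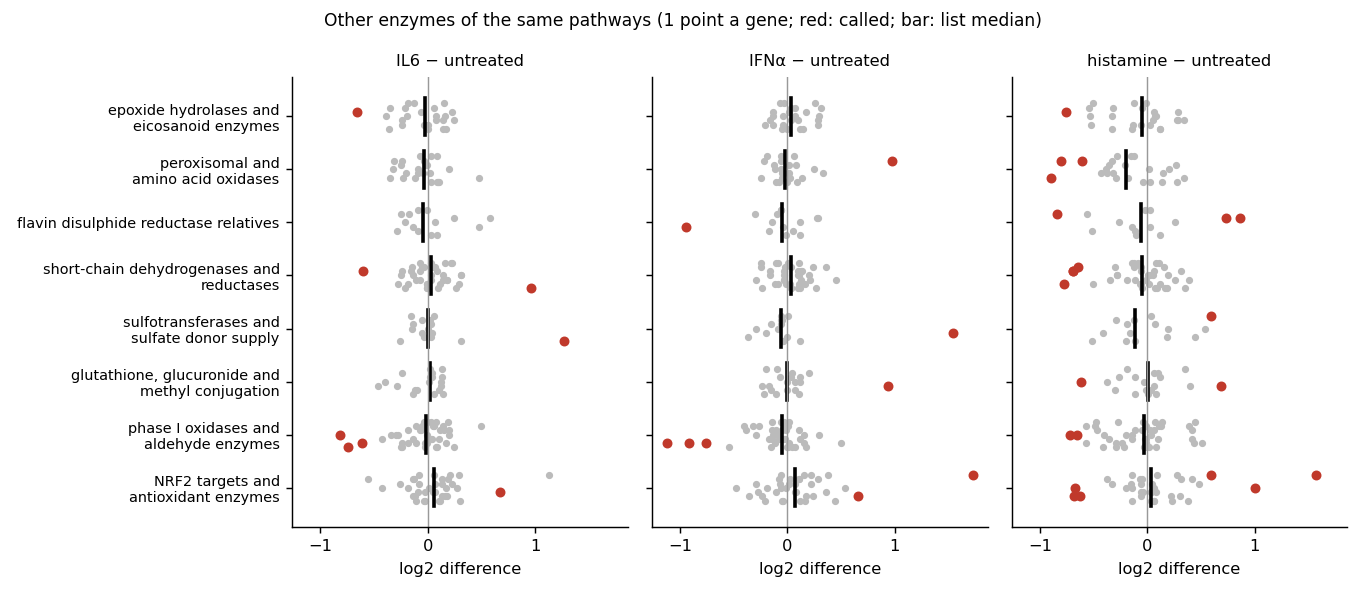
Log2 difference (horizontal axis) of every measured gene of the 8 enzyme lists after each treatment; each point is a gene, red points were called by limma and black bars are list medians. Red points are most numerous after histamine (22 genes), and in the peroxisomal and short-chain dehydrogenase lists they all lie to the left there.

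Among 14 measured genes listed as relatives of PYROXD2 (disulphide reductases and other, mostly flavin-dependent, enzymes), TXNRD1, cytosolic thioredoxin reductase, and GSR, glutathione reductase, rose after histamine, by 1.82-fold and 1.66-fold (limma, adjusted p = 4.18e-08 and 3.55e-07). TXNRD2, the mitochondrial thioredoxin reductase, fell by 0.84 on the log2 scale (limma, adjusted p = 1.28e-05), in the direction of PYROXD2. RENBP, a renin-binding sugar epimerase that is no flavoenzyme although it stands in the list, fell by 0.94 after IFNα (limma, adjusted p = 1.14e-09) and was the single call of the list there. Limma called 0 of the 14 after IL6, while 7 had an unadjusted p under 0.05.

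Short-chain dehydrogenases and reductases related to DHRS12 were called in 4 of 39 cases after histamine, all falls. SDR39U1 fell by 0.78, HSDL2 by 0.69, DECR1, a mitochondrial enzyme that prepares unsaturated fatty acids for β-oxidation, by 0.69, and HSD17B11, a steroid and lipid droplet enzyme, by 0.64 on the log2 scale (limma, adjusted p 1.11e-05 or smaller). After IL6, SDR16C5, a retinol dehydrogenase, rose 1.95-fold (limma, adjusted p = 5.48e-05) and DECR1 fell by 0.61. The IL6 call of DECR1 was lost without untreated repeat 2 or IL6 repeat 3 (log2 difference -0.58 in each), with median centring, quantile normalization or array weights, and its other probe set was not called (-0.57). After IFNα limma called 0 of the 39, while 13 had an unadjusted p under 0.05, and the median was 0.03.

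Around SULT1E1, 15 other genes of sulfate transfer and supply were measured, and 1 was called after each treatment, each a rise. SULT1A1, the phenol sulfotransferase that also conjugates catecholamines, rose 2.41-fold after IL6, from 9.06 to 10.33 (limma, adjusted p = 1.22e-08), and was 2.23-fold higher after IL6 than after IFNα. BPNT1, the phosphatase that clears the nucleotide left when PAPS has given up its sulfate, rose 2.91-fold after IFNα, from 9.91 to 11.45 (limma, adjusted p = 1.01e-12), where SULT1E1 was lowest. TPST1, a protein tyrosine sulfotransferase of the Golgi, rose 1.51-fold after histamine (limma, adjusted p = 5.80e-06), and was under the fold minimum without untreated repeat 3 or histamine repeat 2 (0.56 in each). Its other probe set had 0.43 and was not called.

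Of 44 phase I oxidases and aldehyde enzymes, 3 fell and none rose after each cytokine, and 2 fell and none rose after histamine. MAOB, a monoamine oxidase, fell by 0.82, the amine oxidase AOC3 by 0.75 and ALDH1A1, a retinaldehyde dehydrogenase, by 0.61 after IL6. The other 2 AOC3 probe sets had 0.12 and 0.04 and were not called, and ALDH1A1 was under the fold minimum without untreated repeat 1 or IL6 repeat 3 (-0.58 and -0.57), without the 3 arrays (-0.49), with median centring and with quantile normalization. After IFNα XDH fell by 1.12 (limma, adjusted p = 1.05e-05), ALDH1A1 by 0.92 and the aldehyde oxidase AOX1 by 0.76 on the log2 scale. After histamine CYP39A1 fell by 0.72 and CYP1A1 by 0.65. The other 2 CYP1A1 sets had -0.11 and -0.37, and CYP1A1 was under the fold minimum without histamine repeat 1 (-0.56).

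Antioxidant and NRF2 target genes split after histamine, with 3 of 36 higher and 3 lower. SRXN1, sulfiredoxin, rose 2.00-fold (limma, adjusted p = 9.94e-06) and TXN, thioredoxin, rose 1.51-fold. HMOX1, haem oxygenase 1, rose 2.97-fold (SE 0.51; limma, adjusted p = 0.0292), but lost its call when any 1 untreated or histamine array was left out (adjusted p 0.0600 to 0.0766) or with robust moderation of the spread (adjusted p = 0.119). ABCC3, GPX1, glutathione peroxidase 1, and MSRB2 fell by 0.68, 0.63 and 0.67 on the log2 scale. TXN and GPX1 were chosen after their values were seen. TXN was under the fold minimum with quantile normalization (0.52), and the other GPX1 probe set had -0.49 and was not called. After IFNα HMOX1 rose 3.30-fold (limma, adjusted p = 0.0312) and ABCC3, an organic anion exporter, 1.57-fold. Without IFNα repeat 3 these log2 differences were 0.97 in place of 1.72 and 0.55 in place of 0.65, and neither was called. HMOX1 also lost its IFNα call without any 1 untreated array (adjusted p 0.0715 to 0.0900) and with robust moderation (adjusted p = 0.131). GPX2 rose 1.60-fold after IL6 (limma, adjusted p = 1.73e-05) as the single call.

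Of 19 conjugating enzymes that use glutathione, glucuronic acid or methyl groups, MGST1, a microsomal glutathione transferase, rose 1.92-fold after IFNα (limma, adjusted p = 3.06e-07) and was the single call there. GSTA2 rose 1.61-fold and GSTA4 fell by 0.62 after histamine (limma, adjusted p = 1.11e-05 and 1.32e-08). Of the 4 other GSTA2 probe sets 1 was not called (-0.05). Limma called 0 of the 19 after IL6 at that fold minimum, and before adjustment 4 had a p under 0.05. GSTA2 was counted there by its brightest set (-0.46), whereas sets of it with -0.67, -0.79 and -0.95 were called lower.

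Between the cytokines, 12 of the 216 genes were called. CROT, BPNT1, MGST1, NQO1 and DECR1 were lower after IL6 than after IFNα, with log2 differences of -1.29, -1.59, -1.22, -0.85 and -0.74, as was CYP4V2. SULT1A1, RENBP, XDH, SDR16C5, GPX2 and AOX1 were higher, with 1.16, 1.42, 0.93, 0.84, 0.79 and 0.65 (limma, adjusted p 0.000150 or smaller for the 12). AOX1 was under the fold minimum without IL6 repeat 1 or IFNα repeat 3 (0.58 and 0.56). With the 3 hypoxia-high arrays left out, IL6 repeat 1 stands alone in its group, so calls from that fit are not counted here.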

How the data were processed

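Biotin-labelled total RNA was read on Affymetrix bovine arrays with 1 sample each, per the labels' protocols. The deposited table holds log2 values of 24128 probe sets on 12 arrays, made by the authors with RMA, per the submitters' processing notes. The version of RMA is not stated there. The values span 2.88 to 14.14, as log2 values do. No detection calls were used, and precision is limited by the number of arrays. Groups came from the sample titles. After 112 control probe sets were left out, 24016 were tested. Platform symbols, updated through a RefSeq table of ARS-UCD2.0, gave 1 symbol to 13292 probe sets, several to 86 and none to 10638. Arrays of a group correlated at 0.993 to 0.998.

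limma 3.58.1 in R 4.3.3 fitted a mean per group over all arrays (lmFit, then eBayes with a trend), with Benjamini-Hochberg adjustment over all 24016 probe sets. A call needed a fold of 1.5 or more and an adjusted p below 0.05. The procedure was tested on simulated data. A listed gene is represented by its probe set with the highest mean. The genes and lists were chosen with earlier results of these data known. Named are all probe sets of the 5 genes, up to 4 called genes of each list with the largest differences, marker genes beside a result, and the 3 closest genes by root mean square difference. Alternatives covered moderation, weights, dim probe sets, scaling, the samples fitted, the repeat number as a block, the fold minimum, a gene's probe sets and arrays left out. Figures used matplotlib 3.10.9. Sequences of probes, promoters and proteins were not used here.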

Additional observations from a re-analysis of the deposited data

How the results depend on the processing

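None of the called differences of the 7 probe sets changed sign under any alternative run. The fold minimum moved the counts most. With a minimum of 1.2, limma called 2969 probe sets after IL6, 2928 after IFNα, 5723 after histamine and 4932 between the cytokines, and with 2 it called 149, 322, 253 and 549, in place of 573, 807, 1369 and 1468. Of the 7 enzyme probe sets, a minimum of 2 left 0 after IL6, and a minimum of 1.2 gave 5 after IFNα and 5 between the cytokines. With the brighter 50% of probe sets only, 1 was called after IFNα, because SULT1E1 was left out as dim. With IL6 repeats 2 and 3 and IFNα repeat 3 left out, 21 listed pathway genes were called between the cytokines in place of 12. The histamine fall of EPHX2 was under the fold minimum with array weights (-0.58), median centring (-0.56) and quantile normalization (-0.58).

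Deviations of same-numbered arrays correlated at -0.07 to 0.60, not above 0.1 in every pair, so the repeat numbers were not taken as pairs. Those of differently numbered arrays correlated at -0.61 to 0.37. In 26 of 36 checks, each among the 3 arrays of another group, an array correlated best with its own number. This is a hint from the data, not the design, that arrays of a number may share something. With the repeat number as a block, 600, 827, 1384 and 1473 probe sets were called. No call of the 7 enzyme probe sets changed under this block. RMA compresses dim signals, which bears on SULT1E1 after IFNα and on the dim EPHX2 probe set.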

Other observations

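Genes next to the 5 enzyme genes on the cattle RefSeq assembly were looked at by a rule added after the data were seen: the nearest 2 protein-coding genes on each side, 20 in all, of which 8 had a named probe set. At a fold of 1.5 limma called 1 of these 8 after IL6, 0 after IFNα, 0 after histamine and 2 between the cytokines. An unadjusted p under 0.05 was found for 2, 2, 3 and 4 of them. Of all probe sets 2.39%, 3.36%, 5.7% and 6.11% were called, and a count of 0 among 8 cannot be told apart from such shares. SULT1B1, a sulfotransferase gene in the same cluster as SULT1E1, had log2 differences of -0.00 after IFNα and 0.18 after histamine, and the casein gene CSN1S1 on the other side had -0.10 and -0.02. The levels of these 8 probe sets are not given here. Because RMA compresses dim signals, a small difference in a neighbour need not mean that its transcript did not respond. LOXL4, a lysyl oxidase gene beside PYROXD2, rose after IL6 with a log2 difference of 1.08 (SE 0.12; limma, adjusted p = 2.51e-05) and had -0.01 after histamine, where PYROXD2 was lowest. HPS1, on the other side of PYROXD2, had -0.30 after histamine (limma, adjusted p = 0.000560), short of the fold minimum. WDFY2, beside DHRS12, had -0.18 after histamine (SE 0.14). CDC40, near DDO, had -0.05 after histamine and 0.51 after IFNα, the latter short of the fold minimum. CDC40 was lower after IL6 than after IFNα (log2 difference -0.77, limma adjusted p = 1.05e-07). LOXL4 was the other call between the cytokines, higher after IL6 (1.27).

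GSTA2 has 5 probe sets that did not move alike, and was singled out after its values were seen. After histamine 3 of the other sets were called higher (0.96 to 1.02) and the last was not (-0.05). After IL6 the brightest set was not called, while 3 others were called lower (-0.95 to -0.67).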
